A study of Mus musculus with 20 samples.

Results

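The sites described here are CTCF binding sites over which RNA was counted in unedited cells. They are the 8635 sites, of 124679 in the CTCF table (6.93%), whose read count averaged 10 or more over the 3 wild-type libraries of that table. Of the other sites, 95986 held no count in these libraries and 20058 averaged between 0 and 10. The wild-type counts therefore chose the sites, and the wild-type level is a description here, not a finding. Each site is named by its Ensembl regulatory identifier, which the count table gives without a position. No coordinates, neighbouring genes or sequences are given for this reason.

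The RNA was total RNA of the mouse salivary gland cell line SIMS, grown in DMEM with 10% FBS. The groups were unedited wild type, a Btbd7 knockout (KO) that serves as the negative control, and 3 clones with a Zcchc8 knockout, called clones 1, 2 and 3 here. Both knockouts were made with CRISPR/Cas9. The CTCF table held 19 libraries, namely wild-type replicates 2, 3 and 4 and 4 libraries each of Btbd7 KO and the 3 clones. Each clone is a single edited line, and whether the libraries of a line came from separate cultures is not stated. The p-values therefore measure only the spread between these libraries, which may be technical.

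CTCF is a zinc finger protein that binds DNA at insulators and loop anchors, where it halts cohesin, the ring complex that extrudes chromatin loops. Many CTCF sites lie in introns, at promoters or in enhancers, so RNA over a site can belong to a host gene or to a short unstable transcript started nearby. ZCCHC8 holds together the NEXT (nuclear exosome targeting) complex. With the RNA-binding protein RBM7 and the helicase MTREX, it hands short-lived nuclear RNA to the exosome, which degrades it from its 3′ end. How reads over a site that overlaps a gene were assigned is not given in the sources used here, so the 2 kinds of RNA cannot be told apart in these counts. Fewer cells with a transcript and less of it per cell cannot be told apart either.

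The edited genes were read first, in CPM, the count of a feature scaled by the library's TMM-scaled gene total. Zcchc8 RNA averaged 65.1 ± 2.92 CPM in wild type and 62.3 ± 3.76 in Btbd7 KO (SD, n = 4 each). In clones 1, 2 and 3 it averaged 60.3 ± 4.28, 23.3 ± 1.35 and 54.6 ± 4.84 CPM (SD, n = 4 each). Its RNA was lower in clone 2 than in Btbd7 KO (log2 fold change -1.42, adjusted p = 9.31e-13), while the ranges of clones 1 and 3 overlapped that of Btbd7 KO. By edgeR's test against wild type it was lower in clone 2 (-1.48, adjusted p = 5.19e-13) and in clone 3 (-0.26, adjusted p = 0.0135). Clone 1 was not called against wild type (-0.11, adjusted p = 0.291). The level of the RNA does not check a small edit, and ZCCHC8 protein was not measured. Btbd7 RNA averaged 99.2 ± 3.23 CPM in Btbd7 KO and 202 ± 7.64 in wild type (SD, n = 4 each), with 197 to 211 CPM in the clones. All 6 epithelial markers checked, among them the keratins Krt8 and Krt18, exceeded 1 CPM in every group. Their sum was 3753 to 3884 CPM in the Btbd7 KO libraries and lower, at 2698 to 3508, in the clone libraries. Wild type, at 2876 to 4566 CPM, overlapped both. The markers did not move as a set. Krt7, Krt8 and Krt18 averaged lower in each clone than in Btbd7 KO, and Krt19 and Cdh1 were mixed. Epcam averaged higher, at 314 CPM in Btbd7 KO and 380, 358 and 379 in clones 1, 2 and 3. Of the acinar markers the water channel Aqp5 was present at 111 to 178 CPM, whereas Amy1 and Prol1 stayed under 0.5 CPM. The summed mesenchymal markers ranged from 11.4 to 18.5 CPM in wild type, 22.5 to 35.2 in Btbd7 KO, 10.2 to 13.8 in clone 1, 24.4 to 28.2 in clone 2 and 22.2 to 26.3 in clone 3, and Pdgfrb was at or near 0 in all 5 groups. Of the 3 blood markers the red cell gene Hbb-bs was at 0 in all groups and the leukocyte gene Ptprc averaged at most 0.537 CPM. The macrophage marker Cd68 averaged 5.55 CPM in wild type, 5.89 in Btbd7 KO and 11.2, 9.31 and 5.54 in clones 1, 2 and 3. The sum of the 3 was 5.44 to 6.59 CPM in Btbd7 KO, 8.07 to 13.0 in clone 1, 9.26 to 11.01 in clone 2 and 4.09 to 6.63 in clone 3. The endothelial markers summed to at most 1.02 CPM. The part of these markers in the results below was not tested. The gene totals of the libraries spanned 6833258 to 17771804 counts, and the 4 libraries of clone 1 were all shallow, at 6833258 to 7683444. Counts over the selected CTCF sites ran from 253891 to 660863 per library.

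Most of the selected sites carried little RNA. Their wild-type mean count had a median of 23 and quartiles of 14.3 and 50.3. It lay under 20 counts at 3732 sites, from 20 to under 50 at 2722, from 50 to under 100 at 980, from 100 to under 1000 at 1156 and at 1000 or more at 45. A small group of 531 sites held 50% of the wild-type counts, the top 10 sites 10.9% and the highest single site 2.89%. At the threshold itself, 183 sites averaged exactly 10 counts and 223 averaged 9.67. ENSMUSR00000294329, just inside, had counts of 11, 9 and 10 in the wild-type libraries, and ENSMUSR00000300610, just outside, had 13, 6 and 10. ENSMUSR00000304137, also just inside, had 22, 0 and 8, and ENSMUSR00000295389, just outside, had 16, 7 and 6. The sites next to the boundary thus differed less than their own libraries did. In Btbd7 KO, which played no part in the choice, 6374 of the 8635 sites (73.8%) again averaged 10 counts or more. That count is not scaled for depth. Gene totals were 8280397 to 17115112 in Btbd7 KO and 13876944 to 17771804 in these wild-type libraries. A count was present in all 19 libraries at 7236 sites. At 2 sites all libraries of clone 1 held 0 counts and at 1 site all libraries of clone 2 did. All libraries held 3 counts or fewer at 39 sites in Btbd7 KO, 147 in clone 1, 14 in clone 2 and 28 in clone 3. These numbers are not scaled for depth either, and clone 1 was the shallowest line.

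Summed over the 8635 sites, the RNA level was nearly the same in Btbd7 KO and the Zcchc8 KO clones. The sum was 36494 ± 681 CPM in Btbd7 KO, and 36433 ± 595, 36535 ± 838 and 36883 ± 466 CPM in clones 1, 2 and 3 (SD, n = 4 each). Wild type, which chose the sites, stood at 37570 ± 593 CPM (SD, n = 3). The libraries of the clones, from 35434 to 37532 CPM, covered the whole range of the Btbd7 KO libraries, from 35804 to 37429. Without TMM factors the sums were 35429 CPM in Btbd7 KO and 37033, 37537 and 37627 in clones 1, 2 and 3. As a share of gene counts, 12 clone libraries then held 3.61% to 3.85% and the 4 Btbd7 KO libraries 3.47% to 3.63%. The near equality of the sums therefore depends on the TMM scaling.

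The share of all CTCF-table counts that fell on these sites does not depend on the scaling. It was 89.1% to 90.2% in the 4 Btbd7 KO libraries and 90.3% to 90.6% in wild type. It was 83.9% to 85.8% in clone 1, 85.04% to 86.04% in clone 2 and 83.8% to 85.9% in clone 3. No clone library overlapped a Btbd7 KO library, and the mean was 4.43 percentage points lower in the clones. The choice of sites by wild-type counts favours a lower share in lines that differ more from wild type, so this gap is a description. The counterpart was the RNA over the remaining sites of the table, which summed to 4178 ± 278 CPM in Btbd7 KO and 6325 ± 528, 6174 ± 319 and 6436 ± 471 in clones 1, 2 and 3 (SD, n = 4 each). With TMM factors the remaining sites thus held more RNA in the clones while the sums over the selected sites overlapped. Without them the sums over the selected sites were higher in the clones too, as given above.

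**Figure D1:**
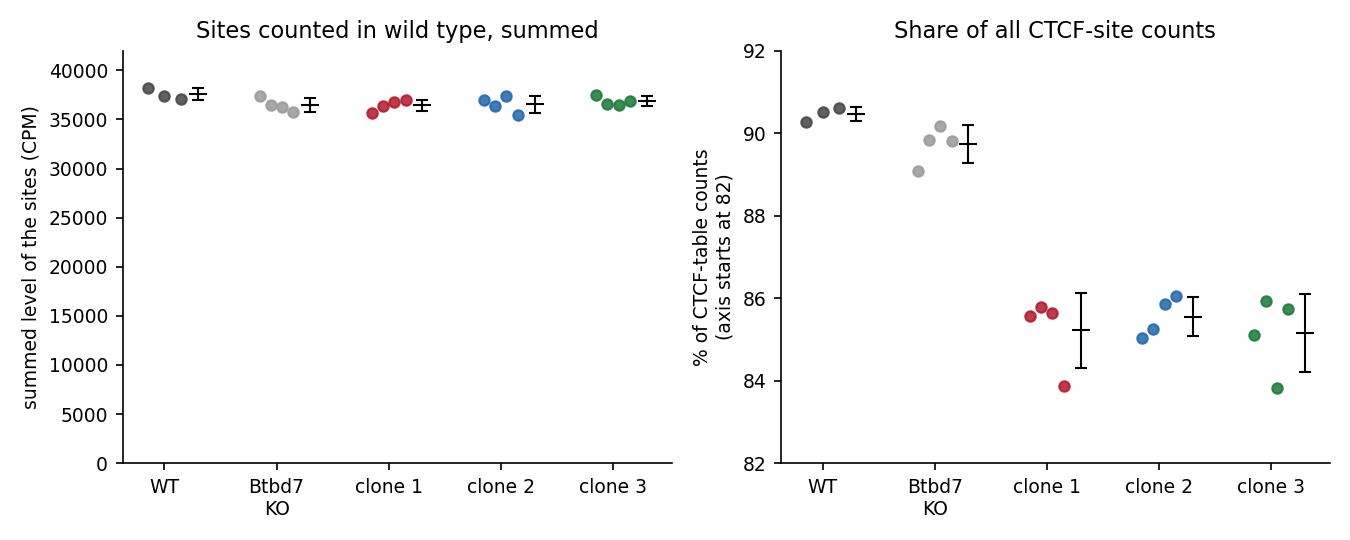
Summed level of the selected CTCF sites in CPM (left) and their share of all CTCF-table counts in percent (right, axis from 82), with 1 point per library and the group mean ± SD in black. The sums of clone and Btbd7 KO libraries overlap, whereas the shares of the clone libraries (83.8% to 86.04%) all lie below those of Btbd7 KO (89.1% to 90.2%).

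Site by site, the clones were compared with Btbd7 KO, since neither side of that contrast holds the libraries that chose the sites. The test was edgeR's quasi-likelihood test over all 13031 CTCF sites that passed the low-count filter, and a site was called at a Benjamini-Hochberg adjusted p under 0.05. Of the 8635 sites, 8496 passed the filter and 139 did not. For the mean of the 3 clones against Btbd7 KO, 460 of these sites were higher and 358 lower. Those are 5.41% and 4.21% of the sites tested here, beside 7.79% and 2.83% of all CTCF sites tested. The 4535 tested sites below the selection threshold gave 555 higher and 11 lower calls. Calls on the sites transcribed in wild type thus fell on both sides, and nearly all the lower calls of the table (358 of 369) were among them. A site with few counts in Btbd7 KO has little room to pass the test as lower, and sites below the threshold hold few counts. The low-count filter also keeps a site with enough counts in as few libraries as the smallest group holds. Sites below the threshold could therefore enter the test through high clone libraries alone. That favours higher calls among them and in the shares over all tested sites, so nothing is read from their split.

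The median difference of the 8496 sites was 0.09 on the log2 scale, with 90% of sites between -0.67 and 1.18, beside 0.18 over all tested CTCF sites and -0.01 over all tested genes. The split of calls moved with the scaling. Without TMM factors it was 561 higher and 259 lower, and with scaling within the CTCF table it was 323 higher and 668 lower, with a median of -0.06. It also moved with the choice of sites. With a threshold of 20 counts in place of 10 there were 270 higher and 341 lower calls, and with sites chosen by their Btbd7 KO mean there were 299 higher and 368 lower. Which direction holds the majority of calls is therefore not fixed by these data.

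The sizes of the called changes differed by direction. The 460 higher sites had a median difference of 1.33 on the log2 scale, 326 of them changed more than 2-fold and 90 more than 4-fold. They were weak sites, with a median of 1.11 CPM in Btbd7 KO, and together they went from 2045 CPM there to 4167 CPM in the clones. The 358 lower sites had a median difference of -0.61, 56 of them changed more than 2-fold and 4 more than 4-fold. They were stronger sites, with a median of 12.5 CPM in Btbd7 KO, and together went from 8612 to 6144 CPM. The gain over the higher sites and the loss over the lower ones were thus of similar size in CPM. These sums run over sites that the same test picked and are a description. Among all tested CTCF sites, 880 of 1015 higher and 67 of 369 lower calls exceeded 2-fold. Small differences could be called only at strong sites, so size is not separate from level. By band of mean CPM over the 19 libraries, higher and lower calls had medians of 1.96 and -1.64 under 1 CPM. From 1 to 2 CPM they were 1.45 and -1.19, and from 2 to 5 CPM 1.15 and -0.83. From 5 to 20 CPM they were 0.71 and -0.55, and at 20 CPM or more 0.79 and -0.40.

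**Figure D2:**
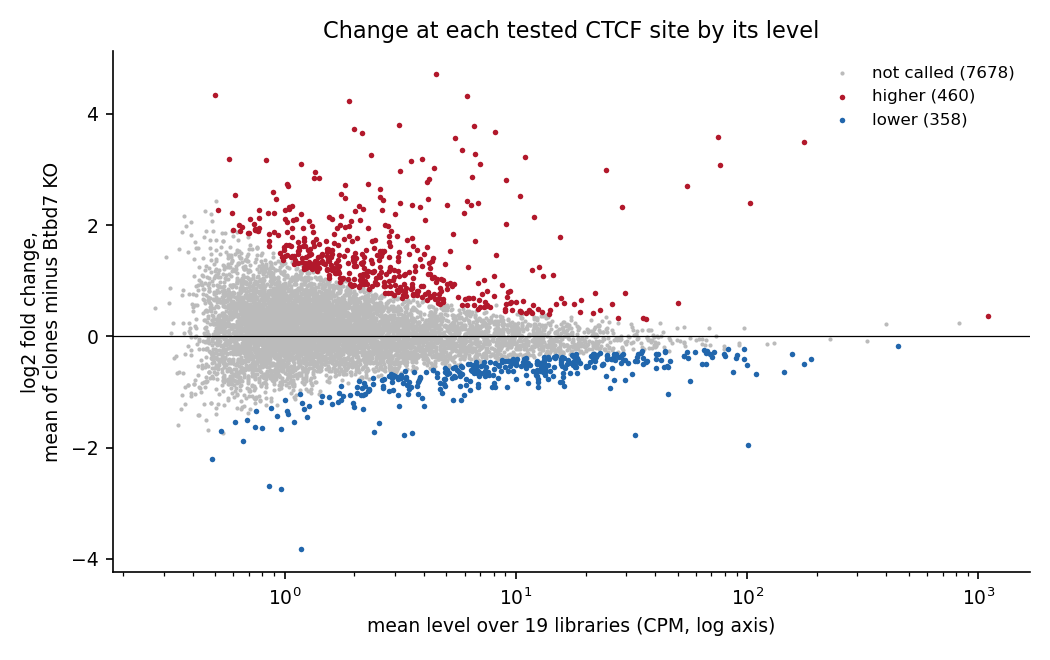
Log2 fold change of the mean of the clones against Btbd7 KO (vertical) for each of the 8496 tested sites, by its mean level over 19 libraries in CPM (horizontal, log axis). The 460 higher sites (red) reach far from 0 and lie mostly at low levels, and most of the 358 lower sites (blue) lie close to 0 at higher levels.

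Among the selected sites the direction differed by level. The bands use libraries of the clones and Btbd7 KO that are compared, so they are not independent of the difference. The same split over all tested CTCF sites was not made. With all levels together, 7.79% of those were called higher and 2.83% lower. Split by mean CPM over the 19 libraries, the median log2 difference was 0.19 in the 2575 tested sites under 1 CPM and 0.18 in the 2617 sites from 1 to 2 CPM. It was 0.06 in the 1866 sites from 2 to 5 CPM, -0.07 in the 1164 sites from 5 to 20 CPM and -0.15 in the 274 sites at 20 CPM or more. By their medians the strongest band thus lay lower in the clones and the weakest bands higher. Up to 5 CPM higher calls outnumbered lower ones, with 37 higher and 13 lower under 1 CPM, 146 and 22 from 1 to 2 CPM, and 175 and 72 from 2 to 5 CPM. Above that lower calls were the more numerous, with 85 higher and 158 lower from 5 to 20 CPM and 17 and 93 at 20 CPM or more. The standard error fell along the same axis, from a median of 0.52 to 0.10 on the log2 scale, so small differences could be called only at strong sites. The medians ran in the same order without TMM factors, from 0.26 to -0.08, and with scaling within the table, from 0.04 to -0.31. The sign in the middle bands did depend on scaling, at 0.0013 from 5 to 20 CPM without TMM factors and -0.10 from 2 to 5 CPM within the table.

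**Figure D3:**
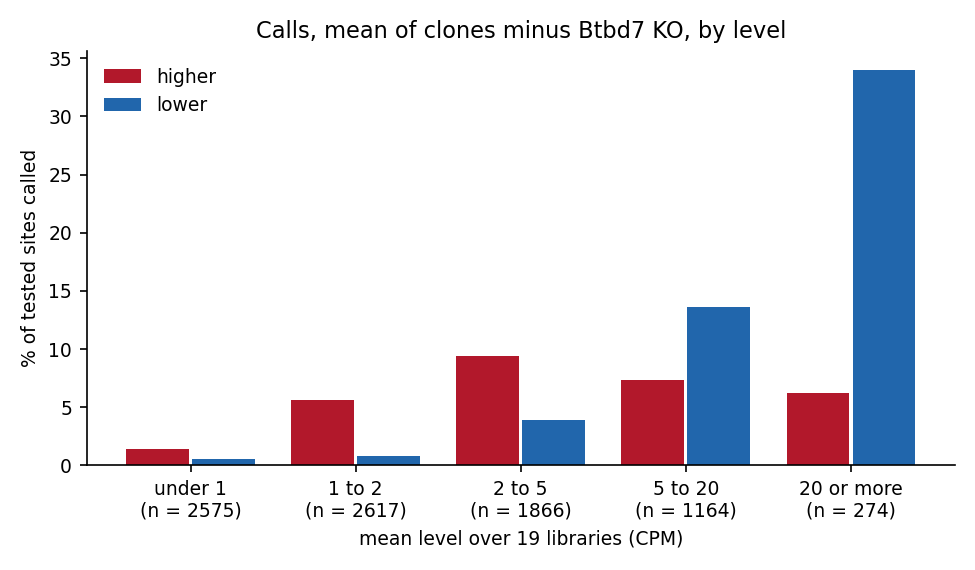
Percentage of tested sites called higher (red) or lower (blue) in the mean of the clones against Btbd7 KO, by the mean level of the site over 19 libraries in CPM, with the number of sites under each pair of bars. Lower calls rise from 0.505% of sites under 1 CPM to 33.9% at 20 CPM or more, while higher calls peak at 9.38% from 2 to 5 CPM.

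Each clone alone gave calls on both sides against the same 4 Btbd7 KO libraries. Clone 1 had 391 higher and 316 lower sites, beside 6.71% and 2.54% of all tested CTCF sites. Clone 2 had 343 and 221, beside 6% and 1.77%, and clone 3 had 374 and 193, beside 6.24% and 1.53%. The median differences were 0.07, 0.11 and 0.12 on the log2 scale in clones 1, 2 and 3, and all 3 turned negative with scaling within the table. All 12 clone libraries lay above all 4 Btbd7 KO libraries at 199 of the tested sites and below them at 123. The same held at 3.67% and 0.99% of all tested CTCF sites. Those counts are 2.34% and 1.45% of the sites tested here.

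Most of the sites with the largest increases held about 1 CPM or less in Btbd7 KO. Of the 8496 tested sites, 176 (2.07%) were called higher in the mean and in each clone against Btbd7 KO, beside 3.71% of all tested CTCF sites. The 8 described next had the largest log2 fold changes among the 55 of them that averaged 50 counts or more over all 19 libraries. Of these 19 libraries, 12 are clone libraries, so a site weak in both controls can reach that mean through the clones alone. That favours large increases, and the sizes at the 8 sites are a description. The 3 clones share the Btbd7 KO libraries in the calls. At ENSMUSR00000381820 the Btbd7 KO libraries stood at 0.422, 0.995, 0.124 and 0.0845 CPM and the wild-type ones at 0.868, 1.05 and 0.762. Clone 1 held 11.5, 11.5, 9.55 and 12.2 CPM, clone 2 held 7.95, 8.12, 6.05 and 9.4, and clone 3 held 9.54, 7.53, 9.18 and 9.95. Every clone library was above every control library, and the mean of the clones was 19.9-fold that of Btbd7 KO (log2 fold change 4.32 ± 0.28 SE, adjusted p = 5.25e-25). The control counts behind this fold were 1 to 15 reads per library, so its size is less sure than its direction: without Btbd7 KO replicate 2 the log2 fold change was 5.20.

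ENSMUSR00000682721 carried the most RNA of these 8 sites. It stood at 22.1, 25.5, 20.8 and 24.8 CPM in Btbd7 KO and at 22.9, 28.8 and 28.0 in wild type. Clone 1 held 324, 330, 279 and 327 CPM, clone 2 held 305, 236, 269 and 257, and clone 3 held 219, 199, 208 and 232. The groups did not overlap, and the mean was 11.2-fold that of Btbd7 KO (log2 fold change 3.49 ± 0.09 SE, adjusted p = 3.68e-57). The clones also differed among themselves (adjusted p = 7.21e-06), with clone 3 lowest.

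ENSMUSR00000682722, which has the next identifier in the annotation, showed the same picture at a lower level. It stood at 11.4, 8.63, 8.06 and 8.28 CPM in Btbd7 KO and at 13.1, 12.3 and 10.2 in wild type. Clone 1 held 158, 138, 146 and 115 CPM, clone 2 held 87.3, 125, 107 and 121, and clone 3 held 83.3, 97.2, 87.7 and 82.2. The mean was 12-fold that of Btbd7 KO (log2 fold change 3.59 ± 0.11 SE, adjusted p = 4.05e-49), again with clone 1 highest and clone 3 lowest and a difference between clones (adjusted p = 1.69e-05). Whether both sites lie in 1 transcript was not tested.

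The other 5 sites of this group rose from about 1 CPM to between 7 and 14 CPM. ENSMUSR00000398803 went from 0.735 ± 0.41 CPM in Btbd7 KO to 9.7 ± 0.948, 10.5 ± 1.78 and 9.89 ± 0.808 in clones 1, 2 and 3 (SD, n = 4 each), a log2 fold change of 3.78 ± 0.25 (SE). ENSMUSR00000433317 went from 0.884 ± 0.415 CPM to 12.3 ± 3.21, 10.4 ± 1.31 and 13.9 ± 1.29 (SD, n = 4 each), a log2 fold change of 3.68 ± 0.26 (SE). The remaining 3, ENSMUSR00000713738, ENSMUSR00000412415 and ENSMUSR00000715167, had log2 fold changes of 3.57, 3.36 and 3.27. At all 5 sites each of the 12 clone libraries lay above all Btbd7 KO and all wild-type libraries, and the test that the clones are equal gave adjusted p-values of 0.61 to 0.983. That leaves differences between the clones at these sites undetected, not absent: the standard error of a difference between 2 clones was 0.20 to 0.23 on the log2 scale there.

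At the largest decreases the control line itself averaged above wild type, most of all at the 2 sites given first. Of the 8496 tested sites, 56 (0.659%) were called lower in the mean and in each clone against Btbd7 KO, beside 0.445% of all tested CTCF sites. The 6 described next come from the 51 of them that averaged 50 counts or more over all 19 libraries. ENSMUSR00000612323 stood at 199, 204, 214 and 249 CPM in Btbd7 KO but at 116, 112 and 103 in wild type. Clone 1 held 94.8, 94.1, 76.7 and 80.4 CPM, clone 2 held 46.5, 44.8, 41.7 and 53.1, and clone 3 held 42.1, 50.8, 41.3 and 43.5. All clone libraries were below all wild-type libraries, which in turn were below all Btbd7 KO libraries. The mean of the clones was 3.85-fold lower than Btbd7 KO (log2 fold change -1.94 ± 0.07 SE, adjusted p = 1.57e-43), and clone 1 fell less than the others (test of equal clones, adjusted p = 3.07e-15).

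ENSMUSR00000380052 had the same order of groups. It averaged 67.9 ± 8.22 CPM in Btbd7 KO and 34.3 ± 4.46 in wild type (SD, n = 4 and 3), and 29.9 ± 5.15, 17.1 ± 2.65 and 15.7 ± 1.98 in clones 1, 2 and 3 (SD, n = 4 each). The difference from Btbd7 KO was -1.76 ± 0.10 (log2, SE; adjusted p = 3.01e-30), but 3 of the 4 clone 1 libraries lay within the wild-type range. Both sites went with the gene Igfbp3, which encodes a secreted binding protein of insulin-like growth factors. Igfbp3 averaged 541 CPM in wild type, 1082 in Btbd7 KO and 418, 241 and 229 in clones 1, 2 and 3. Of 13478 genes it had the highest Pearson correlation with each site over the 19 libraries (r = 0.995 for ENSMUSR00000612323 and 0.979 for ENSMUSR00000380052, of log2 CPM). These r values share the libraries and group differences of both measures, and the gene was picked after its values were seen.

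ENSMUSR00000377334 was lower in the clones than in either control. It stood at 64.0, 60.1, 70.8 and 80.2 CPM in Btbd7 KO and at 55.0, 57.7 and 70.9 in wild type. Clone 1 held 31.9, 31.7, 32.9 and 32.0 CPM, clone 2 held 36.9, 39.7, 25.7 and 36.4, and clone 3 held 32.0, 34.0, 35.1 and 35.9. No clone library reached a control library, and the mean was 2.04-fold lower than Btbd7 KO (log2 fold change -1.03 ± 0.09 SE, adjusted p = 1.48e-17). The gene most like it over 19 libraries, found the same way, was Ppa1, a cytosolic inorganic pyrophosphatase (r = 0.98), at 118 CPM in wild type, 142 in Btbd7 KO and 63.8, 68.6 and 71.8 in clones 1, 2 and 3.

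The last 3 sites of this group, ENSMUSR00000612215, ENSMUSR00000619549 and ENSMUSR00000465251, were 2.22-fold, 2.02-fold and 1.95-fold lower in the mean of the clones than in Btbd7 KO. Their Btbd7 KO means were 8.77 ± 1.69, 7.9 ± 1.34 and 9.96 ± 1.72 CPM (SD, n = 4 each). In wild type they averaged 5.93 ± 2.89, 4.42 ± 1.5 and 6.05 ± 3.08 CPM (SD, n = 3 each), and the clone libraries overlapped the wild-type libraries at all 3. Each was below all Btbd7 KO libraries in 12 of 12 clone libraries.

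**Figure D4:**
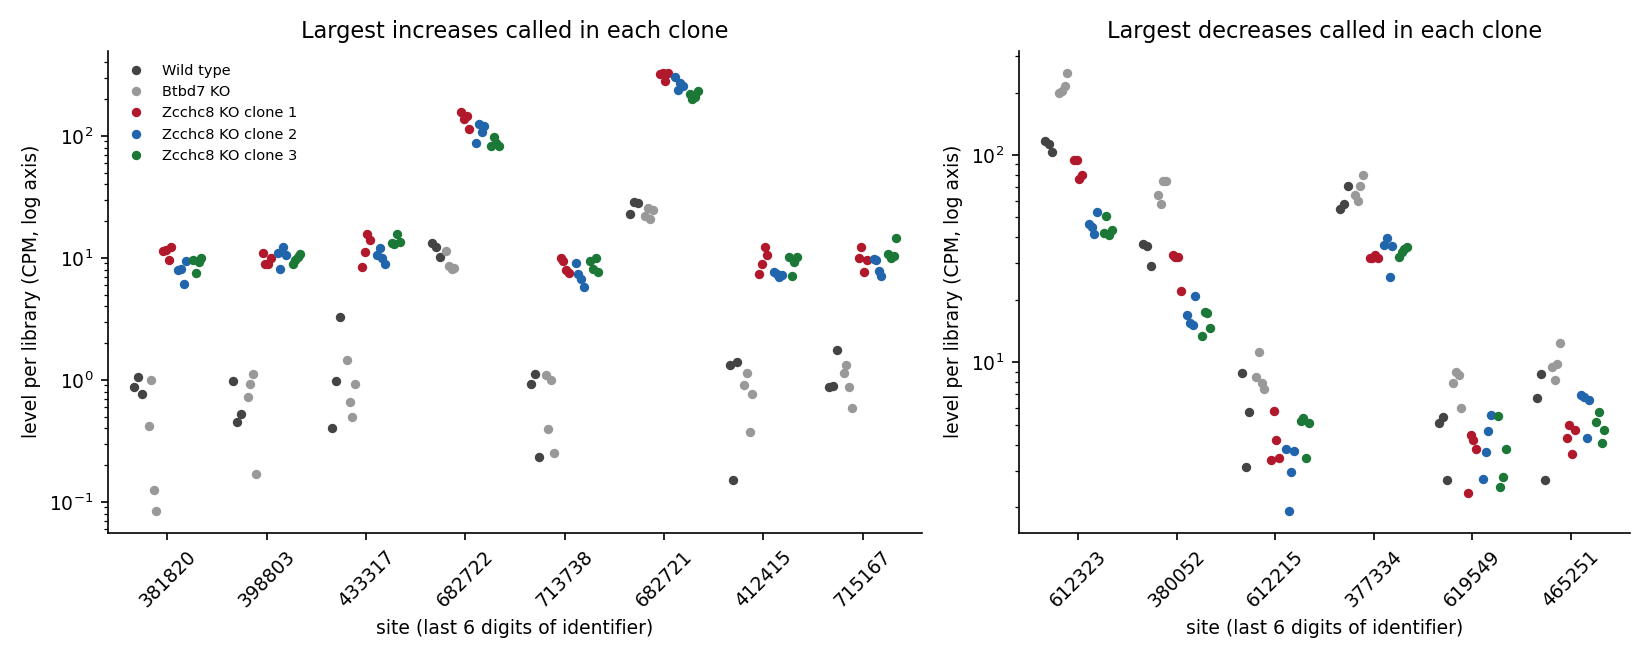
Level of the 8 sites with the largest increases (left) and the 6 with the largest decreases (right) called in each clone, in CPM on a log axis, with 1 point per library coloured by group and sites named by the last 6 digits of their identifier. On the left every clone library lies above every control library, and on the right every clone library lies below every Btbd7 KO library, with wild type clearly above all clone points only at 612323 and 377334.

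At the 5 strongest sites in wild type the mean of the clones differed from Btbd7 KO by at most 1.28-fold, with larger differences in single clones. ENSMUSR00000709496, the highest, averaged 1086 ± 356 CPM in wild type and 903 ± 133 in Btbd7 KO (SD, n = 3 and 4), and 1103 ± 172, 992 ± 292 and 1421 ± 222 in clones 1, 2 and 3 (SD, n = 4 each). It was 1.28-fold higher in the mean of the clones than in Btbd7 KO (log2 fold change 0.36 ± 0.09 SE, adjusted p = 0.00135), with clone 3 at 0.65 and clone 2 at 0.14. That call was lost with DESeq2 (adjusted p = 0.225), with scaling within the CTCF table (0.141) and without Btbd7 KO replicate 2 (0.0519), within a range of 1.3e-22 to 0.225 over all alternatives. ENSMUSR00000443939 averaged 746 ± 277 CPM in wild type and 732 ± 47.7 in Btbd7 KO (SD, n = 3 and 4), and 901 ± 163, 779 ± 232 and 936 ± 208 in the clones (SD, n = 4 each), a difference from Btbd7 KO of 0.25 ± 0.09 (log2, SE) that was not called (adjusted p = 0.0642). It was called in 10 of the alternative fits, with adjusted p-values from 8.8e-09 to 0.649 over all of them.

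Both sites varied from library to library within each group, and so did a gene locus of similar pattern. For ENSMUSR00000709496 that locus was Gm26917 (r = 0.97 over 19 libraries, of deviations from the group means of log2 CPM), at 22457 to 28265 CPM by group. For ENSMUSR00000443939 it was Gm42418 (r = 0.98), at 1479 to 2066 CPM. Both loci are known for collecting reads of ribosomal RNA, and the part of that in the levels of these sites was not tested. Without these 2 sites the summed level was 34859 ± 704 CPM in Btbd7 KO and 34429 ± 868, 34764 ± 621 and 34527 ± 637 in clones 1, 2 and 3 (SD, n = 4 each), and the groups again overlapped.

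Of the next 3 sites by wild-type level, ENSMUSR00000394979 and ENSMUSR00000742911 varied less over the 19 libraries (coefficients of variation 9.82% and 14.9%, beside 25.4% and 23.4% for the 2 strongest) and ENSMUSR00000300919 more (34.8%). ENSMUSR00000394979 stood at 497, 481, 484 and 490 CPM in Btbd7 KO, at 383, 411, 376 and 406 in clone 1, at 475, 490, 515 and 497 in clone 2 and at 413, 405, 403 and 434 in clone 3. Clones 1 and 3 lay below all Btbd7 KO libraries and clone 2 among them (test of equal clones, adjusted p = 0.000655). The mean difference was -0.18 ± 0.05 (log2, SE; adjusted p = 0.0148), and this call was lost without TMM factors (adjusted p = 0.22), without Btbd7 KO replicate 1 (0.0663) and without replicate 4 (0.0509), within a range of 9.09e-06 to 0.22 over all alternatives. Its nearest gene pattern of 13478 genes over 19 libraries was that of the linker histone gene Hist1h1e (r = 0.97, next Tex2 at 0.94). Hist1h1e stood at 528 CPM in wild type, 534 in Btbd7 KO and 455, 556 and 476 in clones 1, 2 and 3. That r shares the group differences and is a description. By deviations from group means the nearest gene was another, Igbp1 (r = 0.86). ENSMUSR00000742911 likewise averaged 330 ± 23.8 CPM in Btbd7 KO and 278 ± 9.42, 364 ± 28.1 and 299 ± 34.2 in the clones (SD, n = 4 each), with a mean difference of -0.08 ± 0.06 (log2, SE; adjusted p = 0.488) and a difference between clones (adjusted p = 0.000812). With scaling within the CTCF table its mean difference was called, at -0.24 (adjusted p = 0.0113), within a range of 0.0113 to 0.953 over all alternatives. ENSMUSR00000300919 ranged from 219 to 743 CPM over the libraries and gave a difference of 0.23 ± 0.12 (log2, SE; adjusted p = 0.286). It was called with no low-count filter (adjusted p = 0.000114), within a range of 0.000114 to 0.814.

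Other sites held a constant level throughout. The least variable of the sites with 50 counts or more was ENSMUSR00000359011, at 31 ± 1.01 CPM in Btbd7 KO and 30.1 ± 1.61, 32.4 ± 1.96 and 30.2 ± 2.71 in clones 1, 2 and 3 (SD, n = 4 each). Its coefficient of variation over 19 libraries was 5.81%, and its difference from Btbd7 KO was -0.01 ± 0.10 (log2, SE). ENSMUSR00000683722 and ENSMUSR00000607452 followed at 7.21% each, with differences of -0.02 ± 0.08 and -0.09 ± 0.09 (log2, SE). These 3 were picked for low variation, so their small differences are a description. Within groups, the median coefficient of variation of a site was 33.1% in Btbd7 KO and 38.5%, 33.0% and 31.5% in clones 1, 2 and 3.

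The clones were not alike at every site. The test that the 3 clones are equal called 237 of the 8496 sites (2.79%), beside 2.19% of all tested CTCF sites. The calls rose with level, from 11 sites under 1 CPM to 56 of the 274 sites at 20 CPM or more (20.4%). Over the same bands the median standard error of the mean of the clones against Btbd7 KO fell from 0.52 to 0.10. Small differences could thus be called only at strong sites, and the rise does not show that clones differ more there. The same split over all tested CTCF sites was not made. At 113 of the 237 sites the highest and the lowest clone were more than 2-fold apart. Clone 2 was the one farthest from the others at 107 sites, clone 1 at 71 and clone 3 at 59. These counts within the 237 sites are given without a share over all tested CTCF sites. In pairs, clone 1 was higher than clone 2 at 78 sites and lower at 79, beside 0.79% and 0.691% of all tested CTCF sites. Clone 1 was higher than clone 3 at 35 and lower at 26, beside 0.322% and 0.238%, and clone 2 was higher than clone 3 at 73 and lower at 59, beside 0.606% and 0.53%. Clone 1 was the shallowest line. With all libraries thinned to its smallest depth the test of equal clones called 211 sites, a count that does not say whether they were the same ones, and the part of depth in these differences was not tested.

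The sites picked for the largest difference between clones were of 2 kinds. That difference is therefore given as a description, and these sites do not stand for all 237. Among those, clone 2 as the farthest clone lay above the others at 54 sites and below them at 53. At ENSMUSR00000304368 all clones were above both controls but clone 1 far more so. Btbd7 KO stood at 7.96, 6.7, 11.4 and 15.04 CPM, wild type at 11.3, 14.6 and 13.7, and clone 1 at 156, 154, 163 and 135. Clone 2 held 39.5, 40.0, 33.4 and 42.9 CPM and clone 3 held 45.2, 49.8, 56.3 and 47.2. The log2 fold changes against Btbd7 KO were 3.91 ± 0.14, 1.94 ± 0.13 and 2.29 ± 0.13 (SE) in clones 1, 2 and 3. ENSMUSR00000306347 was of the same kind, at 2.7 ± 0.643 CPM in Btbd7 KO and 22.2 ± 1.41, 5.52 ± 0.708 and 10.2 ± 1.34 in clones 1, 2 and 3 (SD, n = 4 each).

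At the second kind of site a single clone was low. ENSMUSR00000700983 stood at 11.7, 10.9, 9.06 and 10.5 CPM in Btbd7 KO and at 3.56, 1.5, 1.54 and 2.56 in clone 2, while clone 1 held 9.51, 8.26, 7.67 and 6.75 and clone 3 held 12.9, 11.7, 12.1 and 10.7. Only clone 2 was called against Btbd7 KO, at -2.29 ± 0.21 (log2, SE). Its nearest gene pattern of 13478 genes was that of the basement membrane collagen gene Col4a4 (r = 0.97 over 19 libraries, next Vgll3 at 0.957). Col4a4 stood at 54.8 CPM in wild type, 76.8 in Btbd7 KO and 49.8, 5.6 and 80.7 in clones 1, 2 and 3. The site was picked for its difference between clones, and r shares that group difference, so it is a description. By deviations from group means the nearest gene was another, Gm17105 (r = 0.88). ENSMUSR00000445832 was low in clone 3 alone, at 1.71, 2.89, 1.78 and 2.86 CPM beside 8.14, 7.43, 6.7 and 4.81 in Btbd7 KO, a log2 fold change of -1.55 ± 0.25 (SE). Clone 1 stood at 4.04, 4.06, 6.37 and 9.55 CPM there, on both sides of the Btbd7 KO range, and clone 2 at 8.5, 6.48, 7.76 and 5.94 CPM, with 1 library above it.

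**Figure D5:**
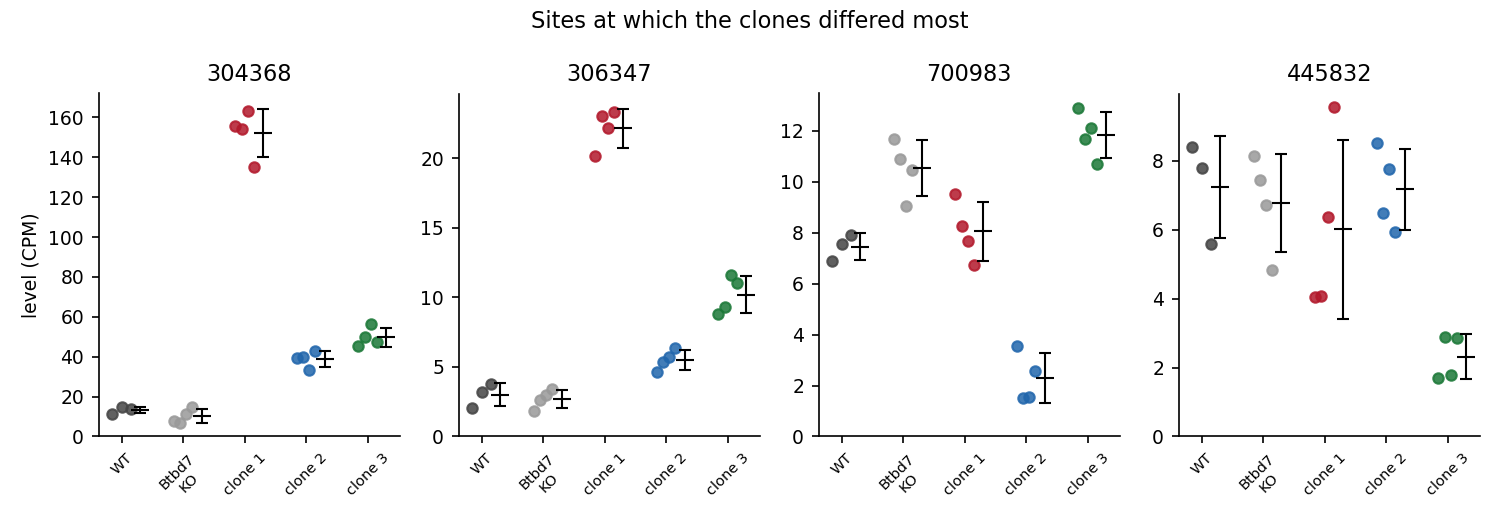
Level in CPM of the 4 sites picked for the largest difference between clones, with 1 point per library and the group mean ± SD in black. Clone 1 is far above the other clones at 304368 and 306347, clone 2 alone is low at 700983, and clone 3 alone is low at 445832.

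The contrasts with wild type over all selected sites are given as counts and medians without a reading, because the wild-type counts also chose the sites and a site high by chance there was favoured. The wild-type levels given above for single sites are likewise a description, with no test. For the mean of the clones against wild type, 206 sites were higher and 183 lower, beside 5.53% and 1.4% of all tested CTCF sites, with a median of -0.07 on the log2 scale. Without TMM factors these calls were 251 and 113, and scaled within the CTCF counts they were 167 and 330. Clone 1 gave 177 higher and 174 lower (4.96% and 1.37% of all tested CTCF sites). Clone 2 gave 155 and 119 (4.31% and 0.929%), and clone 3 gave 186 and 130 (4.66% and 1.01%). Btbd7 KO against wild type gave 13 higher and 26 lower (0.138% and 0.2%), with a median of -0.15. Nothing is read from these values.

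The same rule was applied to 2 other classes of regulatory region to see how far the CTCF sites stand apart. Of 68261 enhancers, 6953 averaged 10 counts or more in wild type and 6893 of these were tested. Against Btbd7 KO, 735 (10.7%) were higher and 359 (5.21%) lower in the mean of the clones, beside 12.5% and 3.92% of all tested enhancers. Of 83914 open chromatin regions, 5403 met the rule and 5307 were tested, with 262 (4.94%) higher and 218 (4.11%) lower, beside 6.99% and 2.83% of all tested. The median differences were 0.12 for enhancers and 0.08 for open chromatin regions, beside 0.09 for CTCF sites. Clones differed at 371 enhancers (5.38%) and 158 open chromatin regions (2.98%). The difference between classes was not tested, and how many reads the classes share is not given in the sources used here.

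Genes of the decay pathway and of the CTCF machinery were read in the gene table, over all 20 libraries. Of the 3 NEXT genes, Zcchc8 and the helicase gene Mtrex were lower in the mean of the clones than in Btbd7 KO, with log2 fold changes of -0.55 (adjusted p = 8.58e-08) and -0.24 (adjusted p = 0.000126). Rbm7, the third, stood at -0.07 (adjusted p = 0.441). By clone against Btbd7 KO, Zcchc8 was called lower in clone 2 only, and Mtrex in clones 1 and 3 but not in clone 2 (-0.06, adjusted p = 0.447). Of 12 tested exosome genes 5 were lower and 7 were not called, beside 22.2% of all tested genes called lower and 18.8% higher. The 5 were Exosc1 at -0.63, Exosc9 at -0.57, the nuclease genes Dis3 at -0.34 and Exosc10 at -0.22, and the cofactor gene C1d at -0.30. Exosc1, Exosc9 and Dis3 were called lower in each clone, Exosc10 in clones 1 and 2, and C1d in clone 1 only. Exosc2 (-0.40) and Exosc8 (-0.27), not called in the mean, were called lower in clone 2 only. Exosc6 held no count in any library and was not tested. Of 6 genes of the PAXT connection and the cap-binding complex, Srrt (0.39) and Zfc3h1 (0.30) were higher and Ncbp1 (-0.24) lower. Of 11 CTCF and cohesin genes 3 were higher in the mean of the clones and 8 were not called in it. The 3 were the cohesin subunit gene Stag2 (0.27) and the loader genes Mau2 (0.19) and Nipbl (0.10). Stag2 was called in each clone, Mau2 in clones 1 and 3 and Nipbl in clone 1 only. Among the genes not called in the mean, Rad21 was higher in clone 2 (0.17) and lower in clone 3 (-0.19). Smc1a was higher in clone 2 (0.36) and Smc3 lower in clone 1 (-0.41). Btbd7 KO itself was called lower than wild type in Stag2 (-0.27), Nipbl (-0.20) and Zfc3h1 (-0.25). Against wild type the mean of the clones was not called in these genes (0.003, -0.10 and 0.04). Mau2 and Srrt were called higher in the clones than in wild type (0.20 and 0.49). Rad21 (-0.19), Wapl (-0.15), Pds5a (-0.24) and Ncbp1 (-0.17) were called lower in the mean of the clones than in wild type. Rad21 was also called lower in Btbd7 KO than in wild type (-0.21). Ctcf itself stood at -0.08 against Btbd7 KO (adjusted p = 0.247), with 126 to 139 CPM in all groups. Without TMM factors all the mean differences from Btbd7 KO shifted up by 0.07 and 4 exosome genes were lower, while the counts of the other 3 lists did not change. The background changed sides, from 2881 genes higher and 3401 lower of 15297 to 3557 higher and 2479 lower.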

How the data were processed

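The authors deposited raw, unnormalized counts (whole numbers) in tables of genes, CTCF sites, enhancers and open chromatin regions, per the file headers and values. Libraries were made with a stranded total RNA kit, per the labels' protocols, and STAR 2.7.3a and FastQC appear in the submitters' processing notes. The genome build, the counter, its strand setting and its rule for shared reads are not given in the sources used here. Wild-type replicate 1 has no column in the CTCF table.

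Library sizes were gene-table totals times TMM factors from 20 libraries. edgeR 4.0.16 (glmQLFit, glmQLFTest) was fitted on the CTCF table over 19 libraries and 5 groups after filterByExpr, with Benjamini-Hochberg adjustment over 13031 sites and standard errors derived from each test. CPM used the same sizes, and a pseudocount of 0.5 was added for correlations. The scripted test was tested on simulated data, where it recovered fewer of the lowered than of the raised sites at both fold sizes. Replicates were compared and none were near-identical: their chi-square was 2.17 to 6.95 times its degrees of freedom. Reads without molecular identifiers are not independent molecules, so limits set by counts cover counting error only.

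Sites named were the 5 highest in wild type. They were also the 8 largest and 6 lowest log2 fold changes among sites called in the mean and in each clone against Btbd7 KO. Those sites had a mean of at least 50 counts over the 19 libraries. For each clone the 2 sites farthest from the other clones, the 3 least variable sites and those beside the threshold were added. The members, lists and rules were chosen with earlier results of these data known. Gene symbols came from a table of gene names, which matched 55144 of 55471 identifiers. Alternatives were DESeq2 1.42.0, other scalings, filters, thresholds and choices of sites, a replicate block, a fit of the compared groups alone, and leaving out each library. Equal depth, clones 2 and 3 only, the scalings by band and the medians under each setting were chosen after seeing the data.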

Additional observations from a re-analysis of the deposited data

Results flagged for a closer look

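In groups of 4 libraries, 8 of 112 sets of values held a library far from the other 3, and chance flags about 1 in 20. ENSMUSR00000709496 stood at 846 CPM in clone 1 replicate 4, below the other 3 libraries. ENSMUSR00000300919 stood at 743 CPM in clone 3 replicate 2, above the others at 319 to 333. ENSMUSR00000682722 stood at 11.4 CPM in Btbd7 KO replicate 1, and ENSMUSR00000682721 at 279 CPM in clone 1 replicate 3. ENSMUSR00000380052 stood at 22.2 CPM in clone 1 replicate 4, ENSMUSR00000612215 at 3.44 CPM in clone 3 replicate 3 and ENSMUSR00000465251 at 4.33 CPM in clone 2 replicate 3. The selected sites held 83.9% of CTCF-table counts in clone 1 replicate 4, the lowest share of that clone.

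At 11 of the 26 named sites the clones differed in their change against Btbd7 KO by edgeR's test of equal clones. The adjusted p was 0.000958 at ENSMUSR00000709496, 0.000655 at ENSMUSR00000394979 and 0.000812 at ENSMUSR00000742911. It was 1.69e-05 at ENSMUSR00000682722 and 7.21e-06 at ENSMUSR00000682721. It was 3.07e-15 at ENSMUSR00000612323 and 3.73e-08 at ENSMUSR00000380052. At the sites picked for differences between clones it was 9.13e-28 for ENSMUSR00000304368, 2.21e-14 for ENSMUSR00000306347, 3.07e-15 for ENSMUSR00000700983 and 4.44e-06 for ENSMUSR00000445832.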

How the results depend on the processing

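Without TMM factors the lower calls against wild type were 113 for the mean of the clones and 79 for clone 2. The median log2 differences from wild type became 0.030 in clone 2 and 0.039 in clone 3, and that of sites from 5 to 20 CPM against Btbd7 KO became 0.0013. The summed levels became 36467 CPM in wild type, 35429 in Btbd7 KO, and 37033, 37537 and 37627 in clones 1, 2 and 3.

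With scaling within the CTCF table the lower calls against Btbd7 KO were 668 for the mean and 528, 430 and 411 for clones 1, 2 and 3, and the higher calls of clone 3 were 245. The medians against Btbd7 KO became -0.062 for the mean and -0.078, -0.030 and -0.049 for clones 1, 2 and 3, and -0.098 for sites from 2 to 5 CPM. The lower calls against wild type were 330 for the mean, 271 for clone 1 and 210 for clone 3.

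With calls limited to changes over 1 on the log2 scale, the lower calls against Btbd7 KO were 56 for the mean and 88, 70 and 42 for clones 1, 2 and 3. Against wild type they were 31 for the mean and 57, 47 and 36 for the clones, and Btbd7 KO against wild type gave 4 higher and 15 lower.

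With a threshold of 20 counts the higher calls against Btbd7 KO were 270 for the mean and 238, 202 and 230 for clones 1, 2 and 3. Against wild type they were 121 for the mean and 108, 96 and 115 for the clones, and the median of clone 1 against Btbd7 KO became -0.0094. With sites chosen by their Btbd7 KO mean, the higher calls against Btbd7 KO were 299 for the mean and 222 for clone 2. The medians then became -0.012 for the mean and -0.046 for clone 1 against Btbd7 KO, and against wild type 0.0064 for clone 2, 0.027 for clone 3 and 0.0063 for Btbd7 KO.

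A filter of a mean of 10 counts turned the medians against wild type to 0.0050 in clone 2 and 0.022 in clone 3. With only the groups compared, the lower calls against wild type were 103 for clone 1 and 71 for clone 2. Btbd7 KO against wild type gave 35 higher calls with DESeq2 and 15 lower at equal depth. Here DESeq2 gave no adjusted p for 4395 of the selected sites.

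The replicate numbers did not pair the libraries: 36 pairs with the same number correlated at -0.037 to 0.082, and 6 of 19 libraries correlated best with their own number. The fit with the number as a block gave 435 higher and 352 lower calls for the mean against Btbd7 KO, and 8 higher for Btbd7 KO against wild type. Leaving out single libraries gave 349 (without Btbd7 KO replicate 2) to 495 higher and 242 (without Btbd7 KO replicate 1) to 383 lower calls for the mean against Btbd7 KO. For Btbd7 KO against wild type it gave 7 (without Btbd7 KO replicate 4) to 13 higher and 12 (without Btbd7 KO replicate 2) to 27 lower. The median of clone 3 against wild type ran from -0.053 to 0.0068 (without wild-type replicate 4). The cause of these changes was not tested.

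Of the other counts, 552 across these settings stayed within 1.5 times. The sites with the largest increases and decreases kept their direction and their side of the threshold under every fit run. So did the sites picked for differences between clones, except ENSMUSR00000700983 in clone 3 against Btbd7 KO, which was never called and ran from -0.013 (scaling within the CTCF table) to 0.23. Depth limits the weakest sites, where the median standard error was 0.52 on the log2 scale.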
